A study of Mus musculus with 8 samples.

Results

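The semaphorin, plexin, Eph and ephrin genes were followed through chromatin accessibility in 4 mouse melanoma cell lines with and without STAT3. Members were the autosomal protein-coding genes of the GRCm38 gene table whose symbols begin with Sema and a number, Plxna, Plxnb, Plxnc, Plxnd, Epha, Ephb, Efna or Efnb. This gave 48 of 21887 protein-coding genes, and 3 more genes of the rule (Efnb1, Plxna3 and Plxnb3) lay on chromosome X and were left out. A region of the accessibility table belonged to a member if it overlapped the gene, or if a member had the nearest gene end within 50 kb. That made 669 of 148664 regions, 498 of them inside a member gene, and 628 passed the filter on low counts. Efnb3 had 0 regions, so 47 genes carried values.

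Semaphorins are secreted or membrane-bound guidance proteins, and plexins are their main receptors. Secreted class 3 semaphorins mostly need a neuropilin as co-receptor. Ephrins are cell-surface ligands that signal to Eph receptor tyrosine kinases on neighbouring cells, with ephrin-A binding mainly EphA and ephrin-B mainly EphB receptors. Both families steer axons and neural crest cells, from which melanocytes arise, and act on cell adhesion, repulsion and migration.

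Open chromatin was read out with ATAC-seq, where Tn5 transposase cuts accessible DNA and tags it for sequencing. Lines 112 and 113 were labelled STAT3 knockout (Stat3∆) and lines 119 and 73 wild type, the latter named Stat3fl in the growth protocol, a name usually given to a floxed allele. Every line came from lymph node cells of mice whose melanoma began at about 25 to 30 weeks, and had 2 libraries called biological replicates, each from 50000 cells. One label calls the lines clones and another calls them pools, and the driver of the tumour and of the Stat3 deletion is not given in the sources used here. Titles carry a number after the letter p that differs between all lines (18, 44, 14 and 68 for lines 112, 113, 119 and 73), and its meaning is not stated.

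Counts per library ran from 2697546 (line 112 replicate 2) to 7464336 (line 119 replicate 1), and member regions took 0.381% to 0.466% of them. Stat3 itself gave no check of the labels, since its 11 regions summed to 61.7 to 77.2 CPM (counts per 1000000 of the scaled library size) across knockout libraries and 39.7 to 73.5 CPM in the wild-type ones. Regions of the Y-linked genes Ddx3y, Eif2s3y, Kdm5d and Uty held 0 to 1 counts per gene over all knockout libraries. Over all wild-type libraries they held 129 to 547. These sums were not split by line, and in them genotype and signal from this chromosome cannot be told apart. Start regions of 10 melanocyte markers summed to 170 to 368 CPM in knockout and 101 to 134 CPM in wild-type libraries. Not every marker followed the sum. The Pmel start had 75.8 and 73.3 CPM in line 73 and 31.7 to 63.7 CPM in knockout libraries. At the Mitf start these were 38.2 and 40.0 CPM and 20.9 to 36.9 CPM. Start regions of 5 fibroblast markers reached 133 to 140 CPM in line 73 against 28.5 to 43.9 CPM elsewhere. Of T cell markers, the Cd2 start had 21.9 to 42.6 CPM in knockout against 3.33 to 20.2 CPM in wild-type libraries, while the Cd3e start overlapped between genotypes. The part of these markers in the results was not tested.

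With the line as the unit, 2 against 2, edgeR's quasi-likelihood test called 0 of 628 member regions for the genotype at an adjusted p of 0.05, as it did among all 140329 regions (0%). The smallest adjusted p of a member was 0.143. Without adjustment, 118 members (18.8%) had a p under 0.05, 70 above and 48 below the wild-type lines, against 16.9% of all regions (8.27% above and 8.64% below). DESeq2's Wald test called 37 members (5.89%), 24 higher and 13 lower, against 4.83% of all regions. In edgeR 4 members passed without line 112 replicate 1, where 0.453% of all regions did.

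A second reading asked which regions lay apart in every pairing of the lines. A region is called separated here if each knockout line differed from each wild-type line at an adjusted p under 0.05, always in one direction, in edgeR's fit of the 8 libraries. The 4 comparisons share lines and the rule is not specific to the genotype. Library values below follow the order of line 112, line 113, line 119 and line 73, replicate 1 before replicate 2. By it 53 member regions (8.44%) had more and 40 (6.37%) had less accessibility in the knockout lines, beside 7.64% and 7.41% of all regions, so the share for the whole family was near the background. The counts differed by class. Of 92 tested EphA regions 12 were higher and 1 lower, of 79 ephrin regions 14 were higher and 4 lower, and of 110 class 3 semaphorin regions 4 were higher and 15 lower. The semaphorins of classes 4 to 7 had 17 higher and 12 lower of 196, the plexins 6 and 7 of 110, and the EphB receptors 0 and 1 of 41. Separated regions lay at 22 of the 47 genes, of which 6 had only higher, 4 only lower and 12 both kinds.

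**Figure D1:**
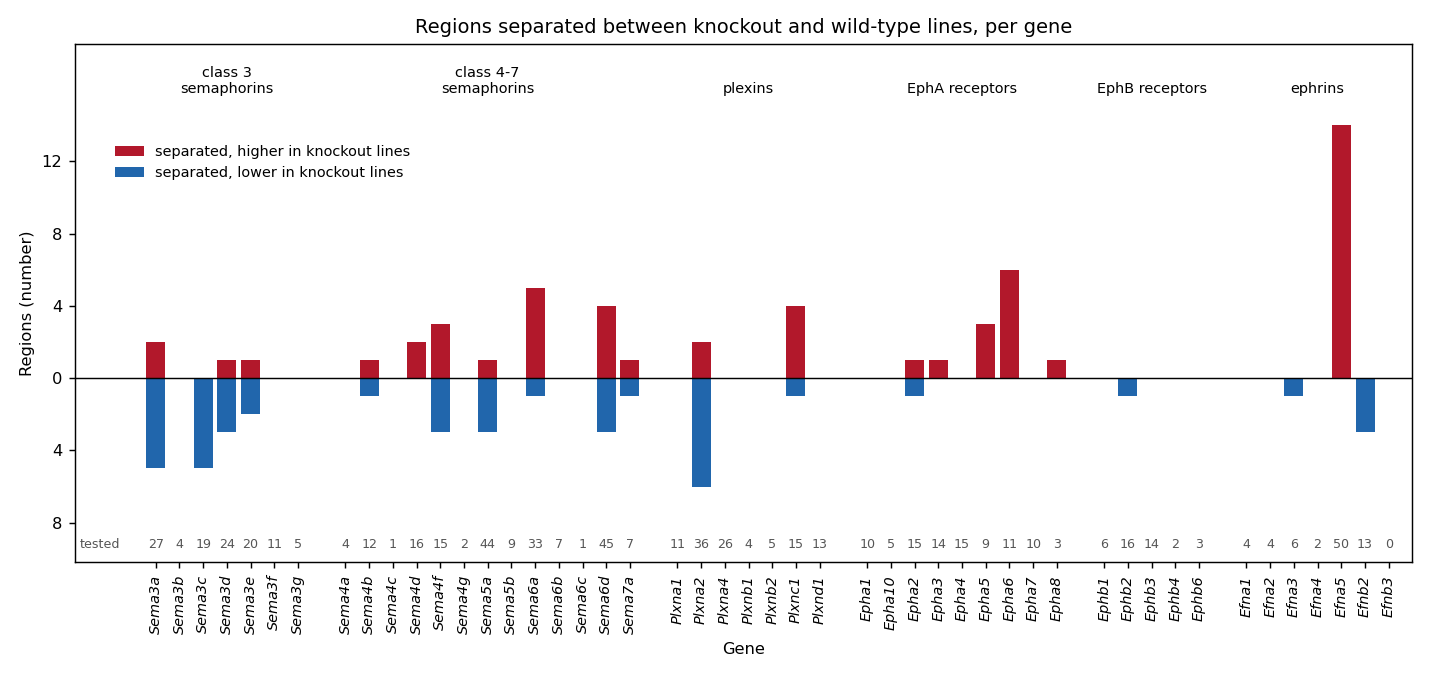
Number of separated regions per gene (vertical axis, regions), above 0 where higher and below 0 where lower in the knockout lines, with the number of tested regions of each gene at the bottom. Efna5 stands out with 14 higher and 0 lower of 50 tested regions, while most genes have few or both kinds.

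Lines of one genotype also differed, the wild-type pair at a share within the range of the pairs across genotypes and the knockout pair at a lower one. Among members, edgeR called 53.3% of regions between the wild-type lines 119 and 73 (56.9% of all regions) and 27.7% between the knockout lines 112 and 113 (23.8%). Line 112 differed from line 119 at 46.3% of members (45.8% of all regions) and from line 73 at 51.3% (49.9%). Line 113 differed from line 119 at 60.8% (58.9%) and from line 73 at 57.8% (52.2%). The share of members called was thus within 6 percentage points of the background in each pair.

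Fewer member regions were separated at gene starts than away from them. A start region is the strongest region within 1 kb of a transcription start, and 45 members had one, with a median of 17.4 CPM and a range of 2.90 to 87.2 CPM. In 39 of them the knockout and wild-type libraries overlapped, a share that was not taken over all start regions and so has no background here. Over all 62 member regions at a start 4 were separated higher and 2 lower (6.45% and 3.23%), where all regions at starts gave 2.49% and 3.14%. The 566 members away from starts gave 49 and 38 (8.66% and 6.71%), beside 8.20% and 7.87%. The 250 bases before the start are printed for the 4 genes with a separated start region (Plxnc1, Epha8, Epha6 and Sema3d) and for Efna5, whose strong start was not separated. They are RefSeq sequences (GRCm38.p6, gene strand, ending 1 base before the start), and capitals mark a searched motif.
Plxnc1, chr10:94944846-94945095, minus strand: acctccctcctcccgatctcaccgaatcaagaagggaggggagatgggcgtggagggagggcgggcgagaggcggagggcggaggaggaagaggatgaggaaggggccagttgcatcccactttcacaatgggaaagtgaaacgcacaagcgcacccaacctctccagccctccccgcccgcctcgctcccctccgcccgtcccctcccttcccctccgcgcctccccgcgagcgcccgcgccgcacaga
Epha8, chr4:136956817-136957066, minus strand: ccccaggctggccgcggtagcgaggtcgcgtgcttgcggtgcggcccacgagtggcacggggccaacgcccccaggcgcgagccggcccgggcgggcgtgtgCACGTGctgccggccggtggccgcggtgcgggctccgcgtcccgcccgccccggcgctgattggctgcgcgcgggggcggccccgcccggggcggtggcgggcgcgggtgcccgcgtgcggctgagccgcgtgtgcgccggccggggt
Epha6, chr16:60605532-60605781, minus strand: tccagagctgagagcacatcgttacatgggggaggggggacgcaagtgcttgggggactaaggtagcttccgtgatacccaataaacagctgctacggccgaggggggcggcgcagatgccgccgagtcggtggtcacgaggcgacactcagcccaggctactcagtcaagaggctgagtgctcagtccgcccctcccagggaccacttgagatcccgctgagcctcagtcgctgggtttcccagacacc
Sema3d, chr5:12382916-12383165, plus strand: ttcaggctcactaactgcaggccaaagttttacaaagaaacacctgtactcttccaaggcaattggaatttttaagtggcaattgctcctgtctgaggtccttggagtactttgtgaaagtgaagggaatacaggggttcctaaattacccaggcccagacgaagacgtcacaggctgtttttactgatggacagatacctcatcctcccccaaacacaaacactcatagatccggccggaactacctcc
Efna5, chr17:62881318-62881567, minus strand: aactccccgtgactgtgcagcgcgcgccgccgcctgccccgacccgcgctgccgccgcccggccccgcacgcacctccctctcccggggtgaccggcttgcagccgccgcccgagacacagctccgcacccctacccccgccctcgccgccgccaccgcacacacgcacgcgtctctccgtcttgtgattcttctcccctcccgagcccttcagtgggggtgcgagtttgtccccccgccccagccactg

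Sequence entries were found for 42 of the 48 genes, in 56 windows. The STAT motif TTCNNNGAA, read on both strands, lay before Efna3 and Epha3 only, 2 of 42 genes, beside 7.65% of 17492 genes. The E-box CACGTG lay before Epha8, Sema4b and Sema6d (all genes 7.61%), and of the windows printed above only that of Epha8 holds a match. CATGTG occurred at 2 genes (Ephb4 and Sema3e, all genes 11.6%), the AP-1 motif TGANTCA at 3 (Sema4c, Sema4d and Sema6b, all genes 7.19%) and the C/EBP motif TTGCGCAA at 0 (all genes 0.217%). The member windows had a median of 64.0% G and C and 16 CG steps, against 55.6% and 10 over all windows. A match describes letters and not a bound factor.

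Plxnc1, the plexin that receives Sema7a, had the largest accessible start among the separated ones. The region at chr10:94943435-94945259 covers the printed window and measured 39.1 and 30.5 CPM in line 112 and 64.8 and 51.8 CPM in line 113. Wild-type line 119 had 9.31 and 9.29 CPM and line 73 had 16.1 and 14.2 CPM. Every knockout library was above every wild-type library. The line means were 46.5 ± 16.6 CPM against 12.2 ± 4.14 CPM (SD, n = 2 lines each), a log2 fold change of 1.94 (SE 0.66) with an edgeR adjusted p of 0.175. At Epha8 the start (chr4:136956673-136957173) was weak, with 4.19, 4.31, 5.44 and 3.39 CPM in the knockout and 1.55, 0.675, 2.56 and 1.11 CPM in the wild-type libraries. The Epha6 start region (chr16:60606055-60606711), 524 bases from the start, had 4.42, 3.39, 8.38 and 7.50 against 0.517, 1.18, 1.02 and 1.67 CPM. Neither gene's groups overlapped, and the log2 fold changes were 1.52 (SE 0.85) and 2.49 (SE 0.91), with edgeR adjusted p-values of 0.378 and 0.196.

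Sema3d, a secreted semaphorin, was the reverse. Its start region (chr5:12383189-12383759) had 1.86, 1.23, 2.04 and 1.21 CPM in the knockout libraries, against 12.4 and 10.1 CPM for line 119 and 17.7 and 12.5 CPM for line 73. The knockout libraries were all lower, with a log2 fold change of -3.04 (SE 0.89) and an edgeR adjusted p of 0.149. The strongest start of each class showed no such order. Sema3c (chr5:17573930-17575010) had 15.8 and 10.5 CPM for line 112 but 54.8 and 44.5 CPM for line 113, around the 27.4 to 42.8 CPM of the wild-type libraries. Sema4c, Plxnb2, Epha7, Ephb3 and Efna5 likewise overlapped, with log2 fold changes of 0.10, -0.23, 0.35, 0.19 and 0.33. Efna5 had the strongest start of the family (chr17:62880564-62883434), with 78.4, 67.7, 119 and 123 CPM in the knockout and 61.5, 62.3, 99.6 and 86.1 CPM in the wild-type libraries.

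**Figure D2:**
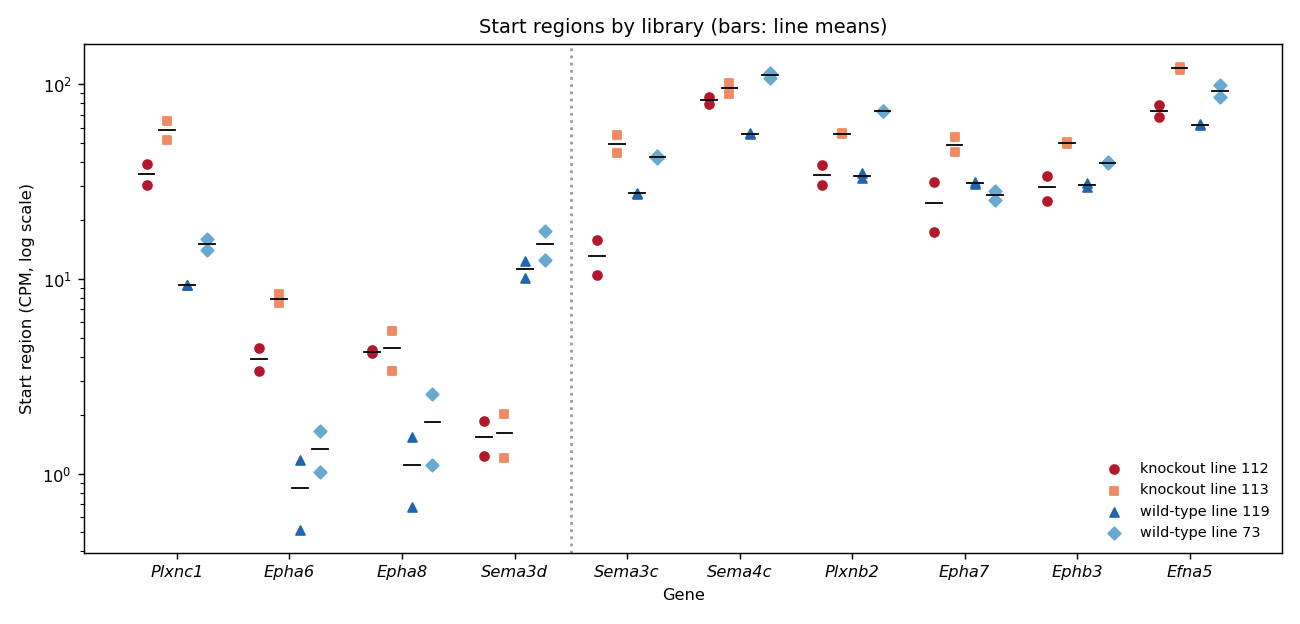
Accessibility of 10 start regions in each library (vertical axis, CPM on a log scale), with a symbol per line and a bar at each line's mean. Left of the dotted line the separated starts of Plxnc1, Epha6 and Epha8 are higher and that of Sema3d lower in both knockout lines, and right of it the strongest start of each class overlaps between genotypes.

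Among the class 3 semaphorins the separated regions were mostly lower in the knockout lines, 15 of 110 (13.6%, all regions 7.41%), with 5 at Sema3a, 5 at Sema3c, 3 at Sema3d and 2 at Sema3e. These 4 genes lie on chromosome 5, in neighbourhoods that were also lower. Other regions within 5 Mb of each gene had a median log2 fold change of -0.91 to -0.77 and were separated lower at 15% to 17.3%. With an offset for each 10 Mb window in place of 1 scaling factor per library, the class had 15 higher and 11 lower regions in place of 4 and 15, where all regions gave 6.96% and 7.66%. The median log2 fold change of the class moved from 0.11 to 0.47 with that offset. What moved the neighbourhoods was not tested.

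Sema3a, the classical growth cone repellent that acts through neuropilin-1, held 3 of the 5 member regions of smallest p among those lower in the knockout lines. The region at chr5:13365017-13365525, inside the gene, had 2.56, 2.77, 0.906 and 1.45 CPM in the knockout libraries. In the wild-type libraries it had 16.2, 16, 20.2 and 18.3 CPM. The groups were far apart, 1.92 ± 1.05 against 17.7 ± 2.25 CPM (SD, n = 2 lines each), with a log2 fold change of -3.22 (SE 0.90, edgeR adjusted p = 0.145). The others, at chr5:13323691-13324268 and chr5:13229196-13230222, had log2 fold changes of -3.27 and -2.99. In the latter the wild-type lines themselves differed, at 28.3 and 32.9 CPM for line 119 and 12.5 and 11.1 CPM for line 73. Farther along 2 regions were separated higher, with log2 fold changes of 2.12 inside the gene and 2.27 past its end. Neither remained without line 112 replicate 1.

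Sema3e, the ligand that binds plexin-D1 without a neuropilin, had the smallest p of the regions that were lower (chr5:14030700-14031253, inside the gene 5424 bases from its start). Its CPM were 0.698, 0.923, 0.227 and 0.484 in the knockout and 9.82, 9.62, 4.35 and 4.72 in the wild-type libraries. Pooled over libraries, 9 counts stood against 167, a wild-type over knockout ratio of 14.1 (95% Clopper-Pearson interval 7.26 to 31.4, counting error only). Sema3d also had a region higher in the knockout lines, chr5:12409965-12410570, with 97 counts against 8 and a ratio of 15.9 (7.78 to 38). So its start and a site 26799 bases downstream went in opposite directions. At Sema3c, whose gene product binds neuropilins, the smallest p belonged to a faint region outside the gene (chr5:17544379-17544943), with 5 counts in the knockout and 57 in the wild-type libraries. Sema3b, Sema3f and Sema3g had 0 separated regions among 4, 11 and 5.

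**Figure D3:**
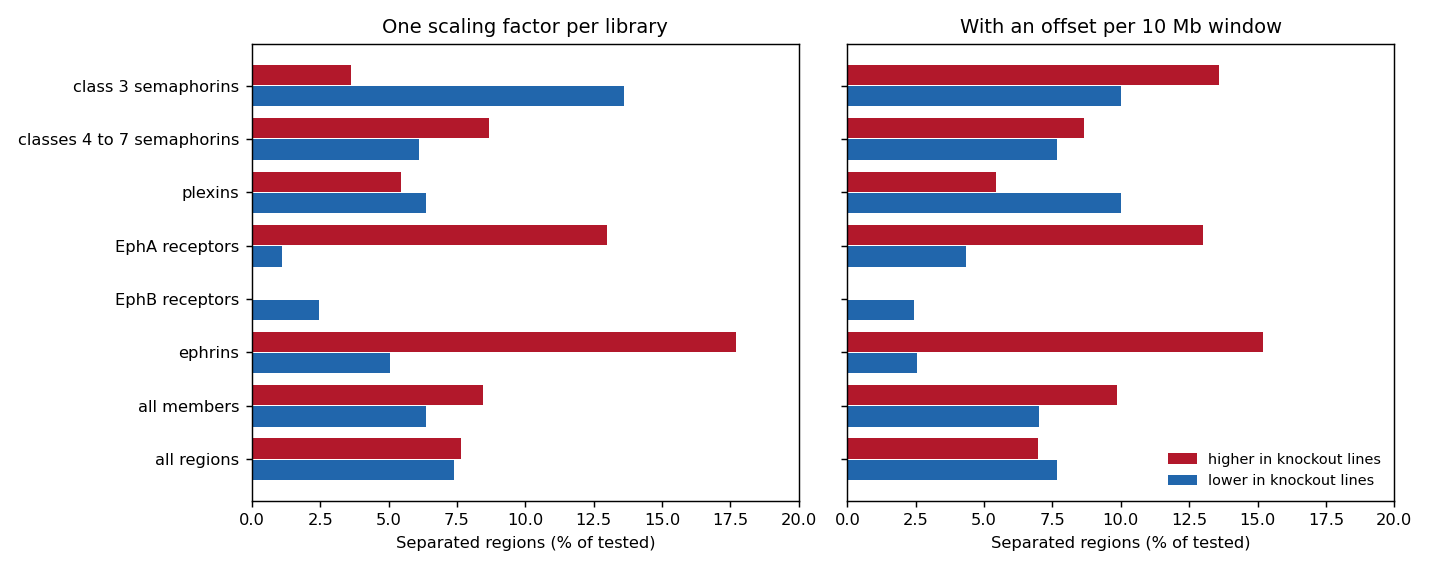
Share of tested regions that were separated (horizontal axis, %), higher or lower in the knockout lines, for each gene class, all members and all regions, with 1 scaling factor per library on the left and an offset per 10 Mb window on the right. The class 3 semaphorins change from 3.64% higher and 13.6% lower to 13.6% and 10%, while the EphA receptors have 13.0% higher in both panels with 1.09% and 4.35% lower, and the ephrins go from 17.7% to 15.2% higher.

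The membrane-bound and matrix semaphorins of classes 4 to 7 held separated regions of both directions, often in one gene. Sema6d, a transmembrane ligand of plexin-A1, had 4 higher and 3 lower of 45 regions spread over its length. The site of smallest p (chr2:124390221-124390772) had 2.56, 3.08, 6.57 and 5.32 CPM in the knockout libraries and 0.775, 0.169, 0 and 0.278 in the wild-type ones. Its 72 counts against 8 gave a ratio of 11.8 (95% Clopper-Pearson interval 5.70 to 28.5). Sema6a, a ligand of plexins A2 and A4, had 5 higher and 1 lower of 33. There the region chr18:47269129-47269703, inside the gene, measured 8.15, 5.54, 20.2 and 16.9 CPM in the knockout libraries and 1.16, 1.01, 0.512 and 1.11 CPM in the wild-type ones. No library overlapped the other group, and the log2 fold change was 3.71 (SE 0.97, edgeR adjusted p = 0.143).

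Sema4f, another transmembrane semaphorin, was split evenly, 3 higher and 3 lower of 15. One of the higher regions (chr6:82921719-82922237) had 3.49, 4.62, 15.2 and 8.47 CPM against 0.646, 1.01, 1.79 and 0.278 CPM, so line 113 was the highest and the groups did not overlap. Sema5a, which carries thrombospondin repeats, had 1 higher and 3 lower of 44. Its region chr15:32328540-32329061 had 1.40, 2.77, 2.49 and 1.94 CPM in the knockout libraries and 13.6, 13.0, 23.6 and 19.7 in the wild-type ones. All knockout libraries were lower, with a log2 fold change of -3.05 (SE 0.88) and an edgeR adjusted p of 0.146. Sema4d, the plexin-B1 ligand, had 2 higher and 0 lower of 16, whereas Sema4b and the GPI-anchored Sema7a each had 1 of either kind. Sema5b had 0 of 9.

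Of 110 tested plexin regions 6 were separated higher and 7 lower (5.45% and 6.36%), all at Plxnc1 and Plxna2. Plxnc1 had 4 higher, within 121 kb of its start, and 1 lower near its far end. Its summed counts were 108, 101, 124 and 112 CPM in the knockout and 45.1, 45.9, 74.3 and 67.4 CPM in the wild-type libraries, which did not overlap. The number of higher regions fell to 2 without line 112 replicate 1 or without line 73 replicate 2, and was 1 in DESeq2. Plxna2, a receptor of Sema6a, had 2 higher and 6 lower of 36. Its region chr1:194852683-194853208, outside the gene, had 1.40, 1.54, 1.13 and 1.69 CPM in the knockout libraries and 15.3, 12.8, 5.89 and 8.06 in the wild-type ones. That is a log2 fold change of -2.90 (SE 0.92, edgeR adjusted p = 0.160), with line 119 above line 73. Plxna2 had 0 higher regions without line 119 replicate 1.

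Plxna1, Plxna4 and Plxnd1 had 0 separated regions among 11, 26 and 13. Plxna4 was far from even across lines, however: 9 of its 26 regions were low in line 113 against each of the other lines. One of them, chr6:32570388-32570929, had 0.680 and 0.242 CPM in line 113. The libraries of lines 112, 119 and 73 had 4.19, 4.92, 5.69, 6.08, 11.8 and 8.61 CPM. The neighbourhood was also lower in line 113 than in line 112: the 770 other regions within 5 Mb had a median log2 difference of 1.02, line 112 over line 113. With the 10 Mb offset Plxna4 had 4 regions separated lower. The part of the neighbourhood in these values was not tested.

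The EphA receptors held 12 of 92 regions higher and 1 lower (13.0% and 1.09%), and 6 of the 12 were at Epha6. Counts at this large gene were low in the wild-type lines. Summed over its regions it had 57.3, 40.7, 56.1 and 56.4 CPM in the knockout libraries and 8.97, 8.57, 9.84 and 10.9 CPM in the wild-type libraries, with line means of 52.6 ± 5.11 against 9.57 ± 1.13 (SD, n = 2 lines each). The log2 fold change of the sum was 2.47 (SE 0.34), with an edgeR adjusted p of 0.159 and a DESeq2 adjusted p of 1.12e-06. All 11 tested regions had a positive difference, while 9.80% of the 408 other regions within 5 Mb were separated higher. The count of 6 was 3 with the 10 Mb offset, and 2 without line 112 replicate 1, without line 73 replicate 1 or in DESeq2.

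Deep inside Epha6, chr16:60047275-60047822 had 13.7, 7.08, 22.4 and 18.4 CPM in the knockout libraries and 0.905, 1.01, 0.256 and 0.556 in the wild-type ones. This is a log2 fold change of 4.44 (SE 0.99, edgeR adjusted p = 0.143). At chr16:60175142-60175646 the wild-type libraries held 3 counts in all against 83, a ratio of 36.4 (95% Clopper-Pearson interval 12.0 to 180, counting error only). That region passed the count filter through the knockout lines and was named for its small p, so its ratio describes the counts and tests nothing. Epha5, another receptor with a role in the nervous system, had 3 higher of 9. Its summed counts overlapped between genotypes, at 80.0, 51.9, 100 and 95.2 CPM in the knockout libraries. The wild-type libraries had 62.6, 58.2, 6.94 and 7.68 CPM. The Epha5 region chr5:84330018-84331110, inside the gene, had 8.38, 3.39, 12.9 and 11.6 CPM against 0.388, 0.507, 0.256 and 0.278 CPM. Counts were 152 against 8, a ratio of 25.0 (12.4 to 58.9). Leaving out line 112 replicate 1 brought this region, both of the above at Epha6 and 1 at Efna5 under the threshold of the genotype test, with edgeR adjusted p-values of 0.0327 to 0.0426.

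Epha2, the EphA receptor most studied in carcinomas, had 1 higher and 1 lower of 15, and Epha3 and Epha8 had 1 higher each. Epha1, Epha4 and Epha7 had 0 separated regions among 10, 15 and 10. Their sums overlapped between genotypes, with log2 fold changes of -0.45, -0.41 and 0.11. Epha4 was a case of one line standing apart, since 6 of its 15 regions were high in line 73 alone. The 12 higher EphA regions became 7 without line 112 replicate 1 or without line 73 replicate 1, and 6 in DESeq2. With the 10 Mb offset 12 were higher and 4 lower. The EphB receptors had 0 higher and 1 lower of 41 (0% and 2.44%), the lower one at Ephb2, with 43 counts in the knockout and 212 in the wild-type libraries. Ephb3, the most accessible of them, had 0 of 14, and its sum was 159 ± 29.0 against 160 ± 40.7 CPM (SD, n = 2 lines each).

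All 14 higher ephrin regions belonged to Efna5, a GPI-anchored ligand of EphA receptors. Of its 50 tested regions 44 (88%) had a positive difference, against 46.5% of all regions, and the median log2 fold change was 1.57. The 14 had log2 fold changes of 1.71 to 4.06 and ran from 17.1 kb before the gene's start to 305 kb past it, 12 of them inside the gene. The 471 other regions within 5 Mb had a median of -0.14 and 6.79% separated higher, close to the values of all regions. The strong start described above was not among the separated regions. A smaller region beside it was (chr17:62879916-62880447, centred 1.14 kb past the gene's start), with 187 counts in the knockout and 73 in the wild-type libraries. In the line pairs, edgeR called 25 of the 50 regions between lines 112 and 119 (45.8% of all regions) and 23 between 112 and 73 (49.9%). Both counts of line 112 were near these background shares. Between lines 113 and 119 it called 38 (58.9% of all regions), and between 113 and 73 it called 34 (52.2%). It called 11 between the knockout lines (23.8% of all regions) and 17 between the wild-type lines (56.9%).

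The strongest difference in Efna5 lay at chr17:62761079-62761756, inside the gene 119561 bases from the start. It measured 27.5, 13.2, 40.3 and 37.7 CPM in the knockout libraries. The wild-type libraries had 2.07, 2.87, 1.02 and 1.11 CPM. The lowest knockout library stood well above the highest wild-type library. Line means of 29.7 ± 13.2 and 1.77 ± 0.991 CPM (SD, n = 2 lines each) gave a log2 fold change of 4.06 (SE 0.86, edgeR adjusted p = 0.143, DESeq2 adjusted p = 0.000750). The summed counts of Efna5 were 429, 349, 465 and 465 CPM against 239, 232, 192 and 167 CPM, again without overlap. The 14 regions became 9 without line 113 replicate 1, without line 73 replicate 2 or in DESeq2, and 12 with the 10 Mb offset.

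Efnb2, the transmembrane ligand of Ephb4, had 0 higher and 3 lower of 13. Its region chr8:8658756-8659283, inside the gene 1959 bases from the start, had 0.465, 0.923, 2.04 and 0.726 CPM in the knockout and 3.88, 3.38, 13.8 and 12.2 CPM in the wild-type libraries. The groups did not overlap, with 17 counts against 148 and a wild-type over knockout ratio of 6.62 (95% Clopper-Pearson interval 4.00 to 11.7). Efna3 had 1 lower of 6, and Efna1, Efna2 and Efna4 had 0 of 4, 4 and 2.

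**Figure D4:**
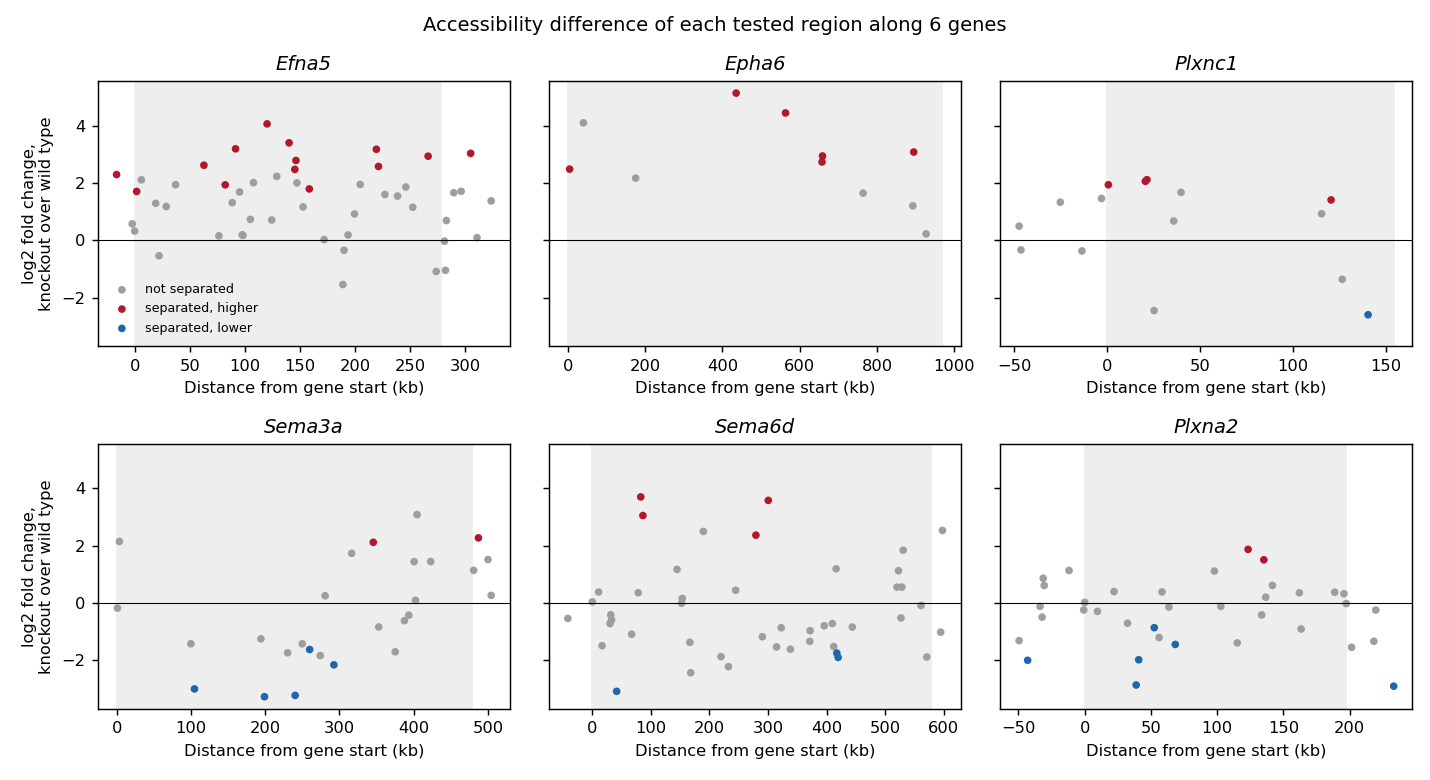
Log2 fold change, knockout over wild-type lines (vertical axis), of every tested region along 6 genes, with the gene body shaded. The horizontal axis (kb) runs in the direction of transcription from the gene's boundary in the gene table. At Epha6 and Sema3a this boundary lies away from the transcription start used elsewhere, so the Epha6 start region stands at 4.53 kb. In Efna5 and Epha6 every separated region is higher, between 1.71 and 5.14 on the log2 scale, while Sema3a, Sema6d, Plxna2 and Plxnc1 hold both kinds.

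Summing the counts of all regions of a gene gave 1 value per gene. By edgeR 0 of 47 sums were called for the genotype (0% of all 17959 genes), 3 had an unadjusted p under 0.05 (all genes 9.43%), and DESeq2 called Epha6 only (all genes 2.38%). The sums separated across all pairs of lines were those of Epha6, Efna5, Plxnc1 and Sema4d, which were higher (4 of 47, all genes 4.86%), and Efnb2, which was lower (1 of 47, all genes 7.15%). Efna5 had 427 ± 53.7 against 207 ± 39.8 CPM and Plxnc1 111 ± 9.60 against 58.2 ± 17.9 CPM (SD, n = 2 lines each), with edgeR adjusted p-values of 0.309 and 0.389. Sema4d, with 128 ± 2.99 against 68.4 ± 40.5 CPM, was lost without line 112 replicate 2 or without line 119 replicate 1. Efnb2, with 80.6 ± 19.4 against 121 ± 6.84 CPM, was lost when either library of line 113 or of line 119 was left out.

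Some regions set 1 line apart from each of the other 3, by a rule chosen after the data were seen. Line 113 was alone in being high at 82 member regions (13.1%, all regions 7.26%), of which 11 lay at Efna5, 9 at Sema6a and 7 each at Sema3a, Sema3d and Sema5a. Line 73 was alone in being low at 87 (13.9%, all regions 10.2%) and high at 75 (11.9%, 13.2%), with 12 of the latter at Sema5a. Line 119 was alone in being high at 61 (9.71%, 11%), 8 of them at Sema6d, and low at 21 (3.34%, 4.86%). Line 112 stood alone at few, 11 high (1.75%, 1.76%) and 10 low (1.59%, 1.28%). Line 113 was low at 13 (2.07%, 2.65%), of which 9 were the Plxna4 regions.

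The examples named next were picked after their values were seen. Near Efna3, the region chr3:89305176-89305934 had 0 counts in both libraries of line 73, where 3 counts would be 0.768 and 0.833 CPM, and 3.96 to 7.69 CPM in the other 6. A region 1295 bases before the start of Sema5a (chr15:32242988-32243518) had 16.6 and 15.8 CPM in line 73 and 0.775 to 2.46 CPM elsewhere. The Epha10 start (chr4:124881309-124881947) was high in line 112, at 15.8 and 12.6 CPM against 3.07 to 4.30 CPM in the other lines. That of Plxnb1 (chr9:109095203-109096100), the receptor of Sema4d, was low there, at 6.75 and 9.85 CPM against 24.4 to 29.9 CPM. In Sema3e a site at chr5:14182071-14182574 had 17.8 and 18.1 CPM in line 119 and at most 2.77 CPM elsewhere.

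**Figure D5:**
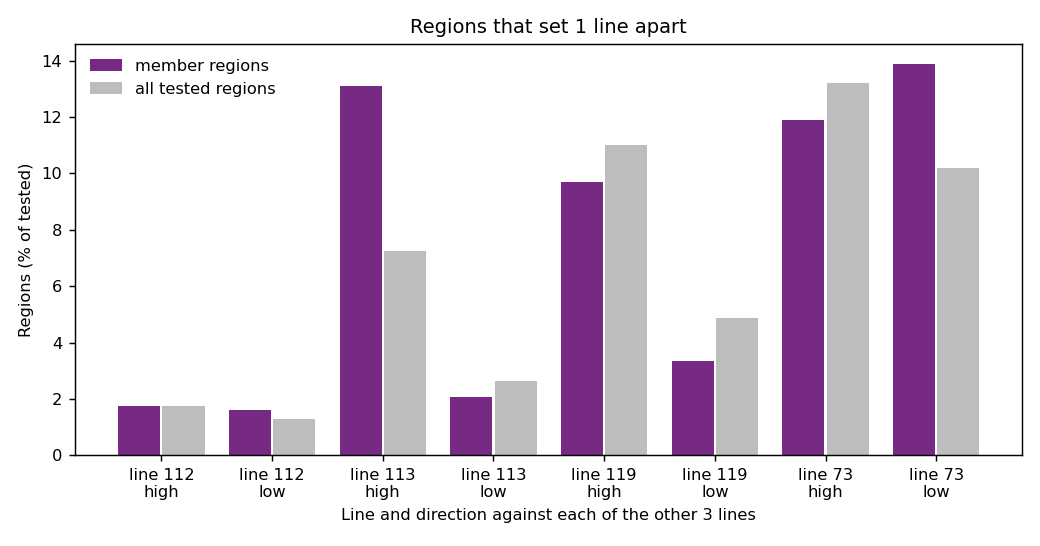
Share of tested regions (vertical axis, %) at which 1 line was higher or lower than each of the other 3 lines, for member regions and for all regions. Members stand above all regions for line 113 high (13.1% against 7.26%) and line 73 low (13.9% against 10.2%), and below or near them in the other cases.

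The authors' peak calls, made for each library, gave a further readout. Of the 669 member regions 9.57% (line 112 replicate 2) to 58.6% (line 119 replicate 1) overlapped a peak, where all autosomal regions gave 12.6% and 61.2%. A peak in all 8 libraries was found at 30 members (4.48%, all autosomal regions 8.17%). The 4 knockout libraries and no wild-type library had a peak at 2 members (0.299%, all 0.452%), and the reverse held at 40 (5.98%, all 6.65%). The knockout lists held 20387 to 52250 peaks and the wild-type lists 56096 to 94906, and the part of list length in these counts was not tested.

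Among 46 further genes of axon guidance (neuropilins, Slit and Robo, netrins and their receptors, and cytoplasmic effectors) 95 of 914 regions were separated higher and 53 lower (10.4% and 5.80%, all regions 7.64% and 7.41%). The gene sums of 6 were separated higher and of 7 lower (all gene sums 4.86% and 7.15%). Chn2, a Rac-inactivating protein of the chimaerin family whose relatives act downstream of Eph receptors, had 14 higher and 0 lower of 29 regions, and 269 against 91.6 CPM in sum. The Slit receptor Robo1 had 245 against 110 CPM, and the netrin receptors Dcc and Unc5c had 85.2 against 37.2 and 278 against 133 CPM. Farp2 and Draxin were the others higher. Among the lower sums were the ligand genes Slit3, at 136 against 291 CPM, and Ntn1, at 66.5 against 114 CPM, with Ntn4, Fes, Rnd1, Ngef and Chn1. The edgeR adjusted p-values of these 13 sums in the genotype test lay between 0.213 and 0.690.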

How the data were processed

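The deposited count table holds the authors' whole-number counts of 148664 regions (501 to 3708 bp) for the 8 libraries, with 0 columns of other samples, and a peak list per library. In each list the authors' peak score, fold over background (a ratio) and −log10 of p and q belong to single peaks, and only positions and −log10 q were used here. The submitters' processing notes name Bowtie2 2.2.4, Picard 1.118, MACS2 2.1.1.20160309 and the builds mm10 and GRCm38, with no roles. Whether reads, fragments or cuts were counted, and whether positions were shifted for the transposase, is not given in the sources used here, so PCR duplicates may be among the counts. The gene table, starts and promoter windows are RefSeq's for GRCm38.p6, and it gives no exons.

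Member regions were tested within a fit of the whole table, so that p-values were adjusted over all regions. The filter (filterByExpr on counts summed per line, minimum count 10, minimum total 15) kept 140329 regions, TMM scaling followed, and glmQLFit with robust estimation and glmQLFTest of edgeR 4.0.16 (R 4.3.3, two-sided) gave p-values, which were adjusted after Benjamini and Hochberg and called under 0.05. The genotype test used counts summed per line, and line pairs used a mean per line over 8 libraries. The SE of a log2 fold change is its size over the square root of F. CPM are counts scaled to 1000000 by TMM library sizes, gene sums by those of the gene table. Replicates differed beyond counting noise (chi-square per degree of freedom 1.07 to 2.19). P-values between lines measure the spread between libraries of a line, which may be technical. The test was tested on simulated data.

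Alternatives were DESeq2 1.42.0, its size factors, other filters, a regional offset, autosomes only, a replicate block, each library left out, a 10 kb assignment and stricter peaks. The members, the partner and marker lists and the tests were chosen with earlier results of these data known. Pooled ratios with intervals belong to regions chosen from these same values. Some of these regions passed the filter only through the group where they were high. The ratios therefore describe counts and do not test a difference, and their intervals leave out the spread between lines. Genes named with values were those with most separated regions (12, and ties), those with a separated start or sum, those with at least 8 tested and 0 separated regions, the 5 regions of smallest p in each direction, and the strongest start of each class.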

Additional observations from a re-analysis of the deposited data

How the results depend on the processing

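Depth limits the faint regions most, since 3 counts correspond to 0.388 to 0.923 CPM. Of 26 named regions under 12 or more settings each, 324 of 347 values kept their direction and side of the threshold. Another 20 passed the threshold where the reported test did not, and 3 changed sign. The reported test had called 0 regions, so an unchanged side of the threshold says little about how stable the differences are. Separated regions stayed within 36 to 60 higher and 27 to 39 lower when each library was left out in turn. Over all regions the shares were then 5.49% to 7.49% higher and 5.79% to 7.4% lower. Genotype calls then ran from 0 to 4, gene sums separated higher from 3 to 4 and lower from 0 to 2, and sums called for the genotype stayed at 0. Line pairs gave 202 to 289 (112 against 119), 256 to 321 (112 against 73), 294 to 397 (113 against 119), 306 to 376 (113 against 73), 99 to 173 (112 against 113, lowest without line 113 replicate 1) and 266 to 346 (119 against 73).

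DESeq2 called 37 member regions and 1 gene sum for the genotype, 179 regions between lines 112 and 119 and 83 between lines 112 and 113. It separated 31 higher and 26 lower, where all regions gave 3.85% and 4.72%. For line pairs under the settings of this section no share over all regions was taken. Requiring 50 counts per library on average left 103 member regions. Of these 50, 74, 63, 74, 37 and 74 were called in the pairs in the order above. With that filter 9 were separated higher and 10 lower, where all regions gave 5.62% and 12.1%. The gene sums of Efnb2 and Sema5a were separated lower. Fewer regions were tested, and the part of this in the smaller counts was not tested. The 10 Mb offset gave 5 higher sums, with Epha5 added, and 2 lower, Efnb2 and Epha1. It turned the sign at the starts of Sema3c (0.22), Sema4c (-0.25) and Ephb3 (-0.0042), all near 0 before, and the cause was not tested. Gene sums near 0 turned too, that of Epha7 to -0.0247 without line 112 replicate 1, and that of Ephb3 to 0.0102 with the 50 count filter. Over the libraries left out in turn, the Epha7 sum ranged from -0.0247 to 0.216 and the Ephb3 sum from -0.0808 to 0.0407, the latter positive without line 112 replicate 2, line 113 replicate 1 or line 73 replicate 2.

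The replicate numbers did not pair the samples: the correlations of replicate differences between lines were -0.075 to 0.0105 over 62945 regions. With the replicate number as a block, 53 regions were separated higher and 39 lower (all regions 7.48% and 7.3%). Of these 53 and 38 were also separated without the block, and 0 were called for the genotype. RLE size factors gave 52 and 42 (all regions 7.37% and 7.61%), no filter 53 and 40 (7.17% and 7.01%), and autosomes alone 53 and 39 (7.62% and 7.42%). The 10 Mb offset gave 62 and 44 (9.87% and 7.01%, all regions 6.96% and 7.66%), of which 43 and 32 were also separated with 1 scaling factor per library.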
